A study of Mus musculus with 42 samples.

Results

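The liver makes bile acids from cholesterol, and 10 genes of that pathway and its control were followed in the livers of mice given the polycyclic aromatic hydrocarbon benzo(k)fluoranthene, here BkF. The genes were chosen by symbol for their known role. They were 4 enzymes that modify cholesterol and its derivatives on the way to bile acids (Cyp7a1, Cyp8b1, Cyp27a1 and Akr1d1), a pair of enzymes that join bile acids to amino acids (Slc27a5 and Baat), the uptake transporter Slc10a1, and 3 nuclear receptors (Nr1h4, Nr0b2 and Nr5a2). They have 13 of the 55681 probes on the array, and all 13 probes were well above background on all 13 liver arrays.

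Bile acids keep cholesterol in solution in bile and help to absorb fat. Cyp7a1 carries out the first and rate-limiting step of the main route, Cyp8b1 sets how much of the product is cholic acid, and Cyp27a1 oxidises the side chain and also opens a second route. Bile acids limit their own synthesis: they bind Nr1h4 (also called FXR), which induces Nr0b2 (SHP), and this protein holds back transcription driven by Nr5a2 (LRH-1) and Hnf4a at genes such as Cyp7a1 and Cyp8b1. Bile acids are also ligands of other nuclear receptors, and Cyp7a1 has a strong daily rhythm in rodents.

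All mice were adult males of the transgenic strain Muta™Mouse, about 11 weeks old and housed singly. They received BkF in olive oil, or olive oil alone, by mouth daily for 28 days, and tissues were frozen 72 hours after the last dose. Liver was measured in 4 vehicle mice (D0, 0 mg/kg-bw/day), 2 low-dose mice (D1, 25 mg/kg-bw/day), 3 medium-dose mice (D2, 50 mg/kg-bw/day) and 4 high-dose mice (D3, 100 mg/kg-bw/day), 13 of the 42 arrays of the series. RNA came from a randomly cut piece of the left liver lobe with all its cell types, so that fewer cells of a type and less RNA per cell cannot be told apart. Each array compared liver RNA (Cy5) with a reference RNA pooled from 11 mouse cell lines (Cy3). Values below are log2 ratios of liver over this reference after loess normalisation, each from 1 array per mouse, and differences are from the vehicle mean. A level on 1 probe cannot be set against a level on another. A gene with several probes is given by the one with the highest mean signal over both channels, called its brightest.

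A pair of livers stood apart. In the liver of D2 mouse 12, 228 of 30460 tested probes lay at least 2 log2 units from the median of the other livers, against 118 in D3 mouse 17 and 3 to 19 in the others. Mouse 12 lacked much of the male pattern of liver gene expression. All 8 of 8 male-biased genes examined were below all other livers, among them Hsd3b5 (0.21 against 6.13 to 6.81) and Cyp4a12a (1.36 against 8.21 to 9.12), and 7 of 8 female-biased genes were above all others, while the Y-linked Ddx3y (1.85) and Eif2s3y (2.06) lay within the range of the other livers. Its metallothionein genes were also high, with Mt1 at 2.02 against -4.86 to -1.04. These lists were chosen after the array had been seen. Mouse 17 had a mean skeletal muscle marker ratio of 4.07, against -0.72 to -0.46 in the other livers. Dose and position on the slide cannot be told apart, since each dose group had its own column of the slides, apart from D3 mouse 20. All 10 hepatocyte markers were detected in every dose group, with mean ratios of 7.84 to 8.46 over the 13 livers.

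The vehicle mice show where these genes are expressed. In the comparison of vehicle liver with vehicle lung and forestomach, limma called 9 of the 10 genes higher in liver than in each other tissue, where 17.2% of 37646 probes were called higher than in lung and 14.9% higher than in forestomach (40.2% and 33.0% in either direction). The exception was Slc10a1 on its brightest probe. In lung, 6 of the 10 genes were not well above background on any vehicle array, and in forestomach 5 were not. Nr1h4 was at least 62.7-fold higher in liver than in lung, Cyp8b1 at least 30.0-fold, Baat at least 14.9-fold, Nr0b2 at least 11.1-fold, Cyp7a1 at least 9.71-fold and Akr1d1 at least 3.23-fold (limma adjusted p from 4.4e-27 to 2.0e-13). Each bound is the smallest of the bounds on the deposited and on the normalised sample signal and of the fold of the ratios, and is open to dye bias. Tissue, slide and scanner software version cannot be told apart here.

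Nr5a2 was well above background in 2 of 4 vehicle lungs and 1 of 4 vehicle forestomachs, and its liver ratio was 5.55 log2 units above that in lung (limma adjusted p 4.1e-21). Cyp27a1 was detected in 3 of 4 vehicle lungs and lay 4.53 log2 units higher in liver (limma adjusted p 2.1e-23). Nr0b2 was detected in 2 of 4 forestomachs, one of which reached a ratio of 1.03. Slc27a5 showed a large step, 6.99 log2 units over lung (limma adjusted p 8.1e-29). The reference channel of this probe had a median signal of 697 on the liver arrays and 40.0 on the lung arrays, and the part of this in the step was not tested. In forestomach, where it was not detected, Slc27a5 was at least 124-fold lower than in liver.

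**Figure D1:**
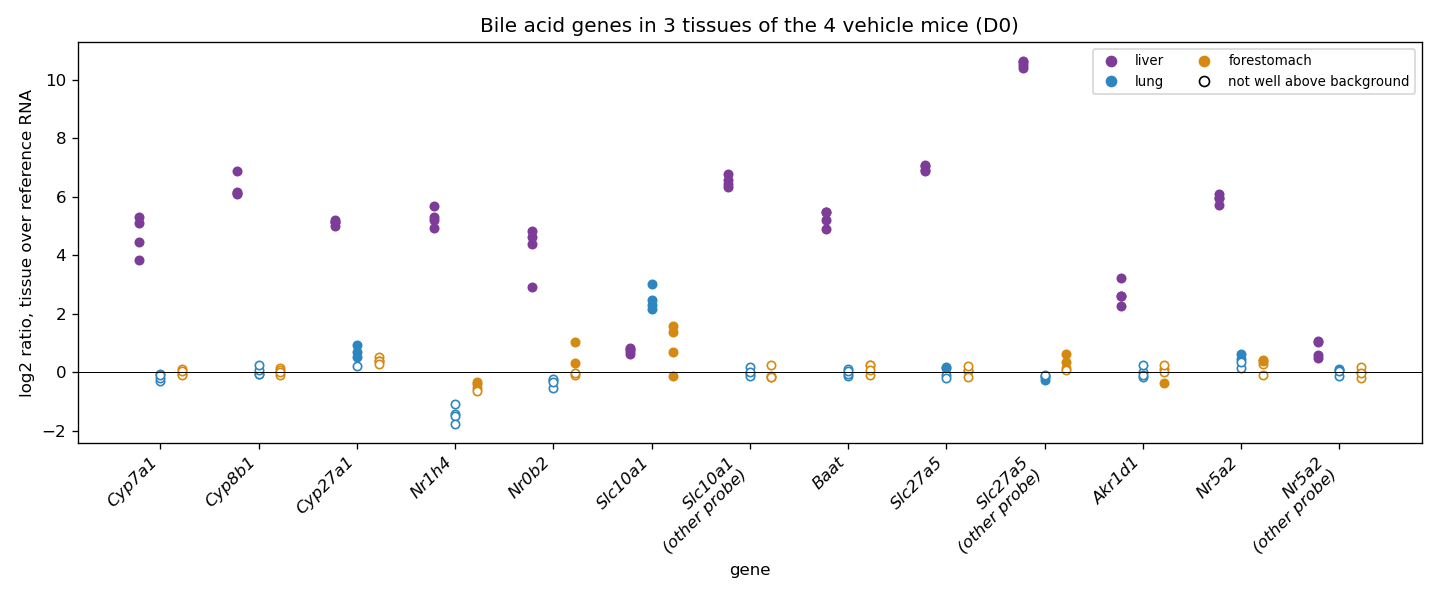
Log2 ratio of tissue over reference RNA for each of the 13 probes in the 4 vehicle mice, by tissue; open circles mark arrays on which the probe was not well above background. Liver stands above lung and forestomach on 12 probes, and the brightest Slc10a1 probe has a mean ratio of 0.75 in liver and 2.49 in lung.

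Whether BkF altered these genes was asked at each dose. limma called 0 of the 10 genes at D1, D2 or D3, in the mean of all doses, or in the dose trend, where a call needed at least a 1.5-fold difference with the adjusted p at or under 0.05 (for the trend, this p alone). Calls were rare over the whole liver: 0.00% of probes at D1, 0.0427% at D2, 0.0525% at D3, 0.0755% for all doses and 0.00% for the trend. At an unadjusted limma p under 0.05, 0 of the 10 genes passed at D1, 3 at D2 (Cyp8b1, Cyp27a1 and Slc27a5) and 2 at D3 (Baat and Slc27a5), all 5 of them lower than the vehicle. These counts take Slc10a1 by its brightest probe, and its other probe also passed at D3 (limma p 0.0498). Without mouse 12, 1 passed on the lower side at D2 (Cyp8b1), and without mouse 17, 3 did at D3 (Cyp8b1, Slc27a5 and Baat). Over all probes the share that passed this limit on the lower side was 0.634% at D1, 5.55% at D2 and 3.89% at D3. A known target of such hydrocarbons was examined beside them. Cyp1a1, the classical target of the aryl hydrocarbon receptor (AhR) that they activate, had a mean 2.28 above the vehicle at D1, 5.69 at D2 and 5.26 at D3 and lay above every vehicle liver in 3 of 3 D2 and 4 of 4 D3 mice, as did 4.51% and 2.95% of all probes (limma p 0.00020 and adjusted p 0.11 at D2, limma p 0.00020 and adjusted p 0.13 at D3), and the 6 genes of the AhR list had medians of 0.45, 1.29 and 0.85. With the scanner software's log ratio these Cyp1a1 values were 9.34 at D2 and 9.08 at D3, and the list had medians of 1.55, 3.08 and 2.41. Without mouse 12 the list had a median of 0.76 at D2, and without mouse 17 of 0.72 at D3. Without mouse 12 the Cyp1a1 difference at D2 was 4.98, and without mouse 17 it was 4.67 at D3. Cyp1a1 was well above background in 8 of the 13 livers and had a vehicle mean ratio of 0.019. At D1 it lay above every vehicle liver in 1 of 2 mice. Cyp1a2, in the same list and detected in all 13 livers, differed by 0.11 at D1, 0.15 at D2 and -0.043 at D3.

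At D2 and D3 most of the 10 bile acid genes lay slightly below the vehicle after loess but not after median centring of the arrays: of the 10, 8 had a lower mean than the vehicle group at D2 and 7 at D3 after loess, and 3 at either dose with median centring, which also moved the median of all tested probes to 0.13 at D2 and 0.14 at D3. At D1, 8 were lower under both (median -0.084 with median centring). With the scanner software's log ratio 7, 10 and 9 of the 10 were lower at D1, D2 and D3. Slc10a1 enters these counts by its brightest probe. Their median difference after loess was -0.088 at D1, -0.18 at D2 and -0.090 at D3, beside medians of -0.0022, -0.0056 and -0.0050 over all tested probes, of which 50.8%, 51.3% and 51.2% were lower.

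**Figure D2:**
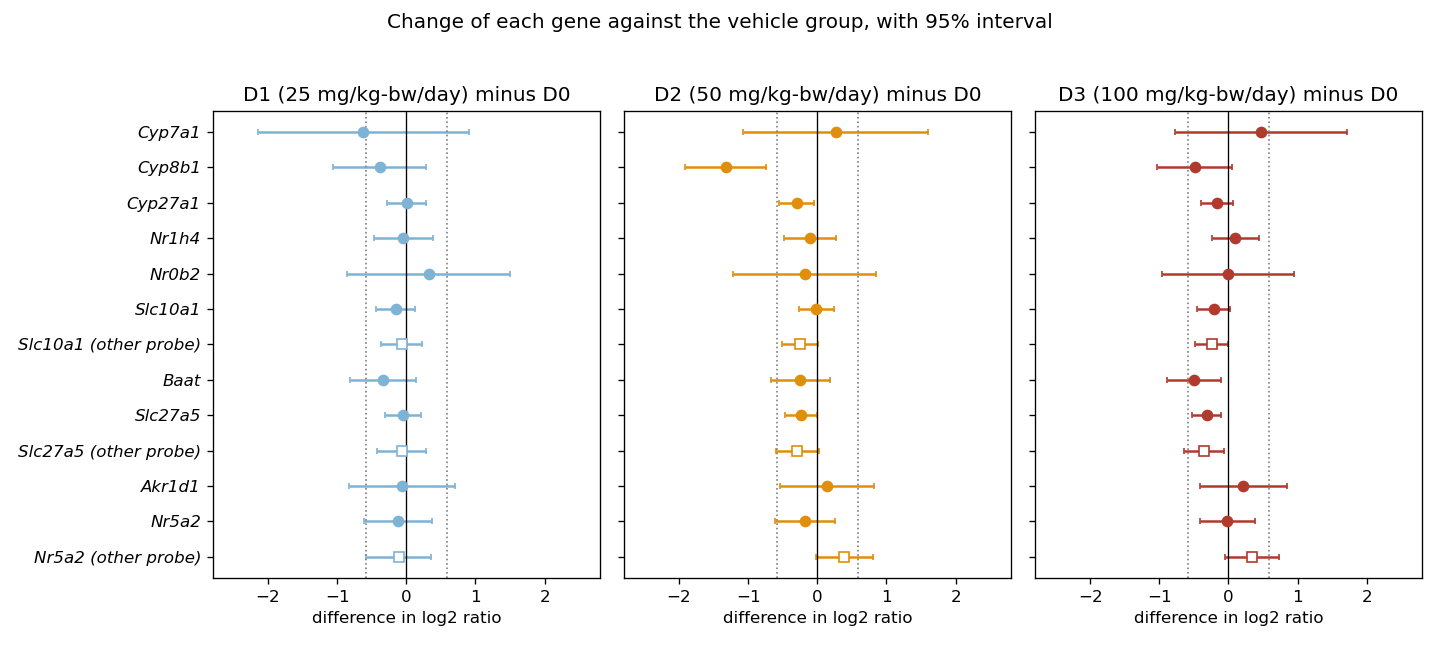
Difference of each dose group from the vehicle group in log2 ratio, with the 95% interval of the limma fit; filled circles are the brightest probe of a gene, open squares its other probe, and dotted lines mark 1.5-fold. The widest intervals are those of Cyp7a1 and Nr0b2, and Cyp8b1 at D2 (-1.33) is the only value beyond the lower 1.5-fold line whose interval also lies beyond it.

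Cyp8b1, the sterol 12-alpha-hydroxylase, had the largest difference of the 10 genes at D2. Its log2 ratios were 6.09, 6.14, 6.90 and 6.17 in the vehicle mice, 5.93 and 5.95 at D1, 4.82, 4.54 and 5.63 at D2, and 5.54, 6.31, 5.50 and 5.99 at D3. All 3 D2 livers lay below every vehicle liver, as did both D1 livers and 3 of 4 D3 livers. Among all tested probes, 5.20% had both D1 arrays and 4.76% all D2 arrays below every vehicle array. The D2 mean was 2.51-fold lower than the vehicle mean, a difference of -1.33 (SE 0.27, 95% interval -1.92 to -0.74, limma p 0.00031 and adjusted p 0.14). At D3 the difference was -0.49 (SE 0.25, limma adjusted p 0.67) and at D1 -0.38 (SE 0.31, limma adjusted p 1.00). Over all doses it was -0.73 (SE 0.22, limma p 0.0050 and adjusted p 0.45). The values did not follow the order of the doses, and D3 minus D2 was 0.84 (SE 0.27, limma p 0.0090 and adjusted p 1.00).

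The 2 lowest Cyp8b1 values belonged to D2 mice 12 and 11, which shared a slide. Within that slide the D2 difference was -1.44, and on the other slide, with 1 D2 mouse, it was -0.90. Without mouse 12 the D2 difference was -1.10 (limma p 0.0023 and adjusted p 0.33). Without vehicle mouse 3, the highest vehicle liver, it was -1.14 (limma adjusted p 0.37), and the D3 difference was then -0.30 in place of -0.49. Leaving out 1 array moved the D1 difference between -0.46 and -0.19. The part of mouse 12's other differences in its Cyp8b1 value was not tested.

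The Cyp8b1 promoter is shown because this gene had the largest difference of the 10 and because Nr5a2 acts through sites of the form CAAGGNCA. The 250 bases before the RefSeq start site lie at chr9:121916306-121916555 (GRCm38.p6, - strand), with a match to CAAGGNCA in capitals, 60 to 53 bases before the start.
Cyp8b1: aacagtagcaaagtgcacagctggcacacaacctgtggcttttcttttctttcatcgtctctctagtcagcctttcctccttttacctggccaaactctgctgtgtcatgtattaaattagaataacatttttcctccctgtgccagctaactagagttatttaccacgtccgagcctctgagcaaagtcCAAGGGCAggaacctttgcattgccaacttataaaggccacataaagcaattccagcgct

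Cyp7a1, cholesterol 7-alpha-hydroxylase, varied widely between mice, and its differences had the largest SE of the 10 genes. Its log2 ratios were 5.32, 4.47, 5.12 and 3.85 in the vehicle mice, 4.11 and 4.02 at D1, 3.61, 6.12 and 5.13 at D2, and 5.34, 5.07, 3.70 and 6.51 at D3. The lowest and the second highest of all 13 livers were both D2 mice, both D1 livers lay within the vehicle range, and the D3 group spanned the vehicle range and beyond it on both sides. The differences were -0.62 (SE 0.70), 0.26 (SE 0.62) and 0.47 (SE 0.58) at D1, D2 and D3, with limma adjusted p of 1.00, 0.91 and 0.89. The interval at D3 ran from -0.78 to 1.71, or from 0.584 to 3.27 times the vehicle level. Leaving out 1 array moved the D3 difference between 0.016 and 0.95. Without mouse 12 the D2 difference was -0.32, and with the scanner software's log ratio it was -0.51 at D2 and -0.10 at D3. Of 14 circadian clock genes tested, limma called 0 in any comparison. At D3 10 had a mean above and 4 a mean below the vehicle (median 0.40). These differences ran from -0.81 for Bmal1 to 1.64 for Dbp (limma adjusted p 0.62 for each). The part of the clock genes in the Cyp7a1 values was not tested.

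**Figure D3:**
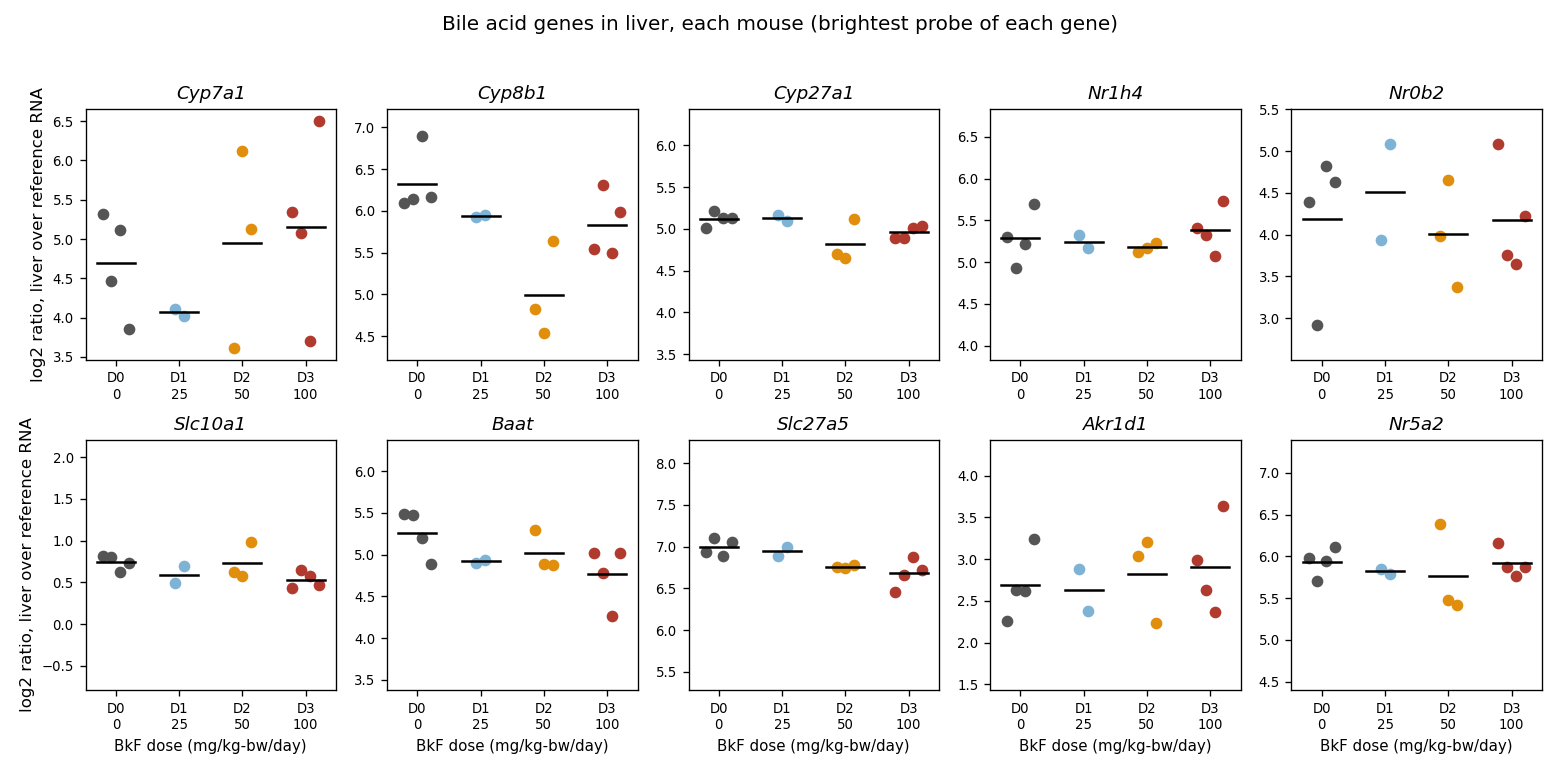
Log2 ratio of liver over reference RNA for the brightest probe of each of the 10 genes, by dose; each point is 1 mouse, each bar a group mean, and the panels are centred on different levels but span nearly equal ranges. Cyp7a1 and Nr0b2 scatter widely, Cyp8b1 is lowest at D2, and Slc27a5 is tightly grouped.

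Cyp27a1, the mitochondrial sterol 27-hydroxylase, was among the steadiest of these genes. Its probe is printed on 10 spots of each array, which were averaged. The log2 ratios were 5.02, 5.22, 5.13 and 5.13 in the vehicle mice, 5.16 and 5.10 at D1, 4.70, 4.65 and 5.11 at D2, and 4.89, 4.90, 5.02 and 5.04 at D3. Mice 11 and 12 were again the lowest pair, and D2 mouse 13 lay within the vehicle range. The D2 difference was -0.30 (SE 0.12, limma p 0.022 and adjusted p 0.39). It was -0.44 within the slide of mice 11 and 12 and -0.017 on the other, and -0.21 without mouse 12 (limma adjusted p 0.63). With median centring it was -0.073 (limma adjusted p 0.81). At D3 the difference was -0.16 (SE 0.11, limma adjusted p 0.75).

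Akr1d1, the delta(4)-3-ketosteroid 5-beta-reductase of the pathway, ranged from 2.26 to 3.24 in vehicle livers, from 2.38 to 2.88 at D1, from 2.23 to 3.20 at D2 and from 2.36 to 3.63 at D3. The groups overlapped throughout. Its differences were -0.059, 0.14 and 0.21 at the rising doses, all under their SE of 0.36, 0.31 and 0.29.

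Slc27a5, the bile acid-CoA ligase that activates bile acids for conjugation, differed from the vehicle by little but with little spread. Its log2 ratios were 6.93, 7.10, 6.89 and 7.05 in the vehicle mice, 6.89 and 7.00 at D1, 6.76, 6.74 and 6.78 at D2, and 6.46, 6.66, 6.87 and 6.73 at D3. All 3 D2 livers and all 4 D3 livers lay below every vehicle liver, while the D1 livers lay within the vehicle range. Among all tested probes 4.76% at D2 and 3.04% at D3 did so. The D3 mean was 1.24-fold lower, a difference of -0.31 (SE 0.099, 95% interval -0.53 to -0.10, limma p 0.0073 and adjusted p 0.44). It was -0.46 and -0.17 within the 2 slides. The other probe of the gene gave -0.35 (SE 0.13, limma adjusted p 0.55), again with 4 of 4 D3 livers below every vehicle liver. At D2 this other probe had 2 of 3 livers below every vehicle liver. The dose trend of the brightest probe was -0.32 per 100 mg/kg-bw/day (SE 0.092, limma p 0.0031 and adjusted p 0.34). With arrays centred on their median in place of loess, the D3 difference of the brightest probe was -0.0038 (limma adjusted p 0.99), so its size depended on the normalisation.

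Baat, which joins activated bile acids to taurine or glycine, had log2 ratios of 5.49, 5.48, 5.19 and 4.89 in the vehicle mice, 4.90 and 4.94 at D1, 5.29, 4.89 and 4.87 at D2, and 5.01, 4.77, 4.26 and 5.02 at D3. Vehicle mouse 4 lay among the dosed mice, and 2 of 4 D3 livers were below every vehicle liver. The D3 difference was -0.49 (SE 0.18, limma p 0.018 and adjusted p 0.53), -0.59 and -0.40 within the 2 slides and -0.23 with median centring. Without D3 mouse 19, the lowest liver, it was -0.33. The trend was -0.45 per 100 mg/kg-bw/day (limma p 0.019 and adjusted p 0.50).

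Other liver genes were also lower after loess. Of the 821 tested probes with a vehicle log2 ratio of at least 4, a limit chosen after the data had been seen, 65.8% were lower than the vehicle at D1, 78.1% at D2 and 80.4% at D3, with medians of -0.057, -0.20 and -0.19. The vehicle values that chose these probes also enter the differences. This by itself favours lower values, so the shares are a description only. The vehicle means of 8 of the 10 members lie in that range. With median centring only 43.4% of them were lower at D2 and 32.4% at D3. Hepatocyte markers were lower at D3 in 10 of 10 cases after loess (median -0.38) and in 6 of 10 with median centring, and periportal markers in 10 of 10 (median -0.42) and 8 of 10. The 9 pericentral markers had a median of 0.40 at D3, which was -0.25 with the scanner software's log ratio. Without mouse 17, the D3 medians after loess were -0.29 for hepatocyte and -0.37 for periportal markers, with 10 of 10 of each lower, and the share of the high-ratio probes that were lower was 74.8%. The mean hepatocyte marker ratio ran from 8.27 to 8.46 in vehicle livers and from 7.84 to 8.27 at D3. The medians of the other marker lists at D3 (cholangiocyte, macrophage, endothelial, stellate, lymphocyte, pancreatic acinar and intestine) lay between -0.027 and 0.30, and without mouse 17 between -0.11 and 0.18. The 6 skeletal muscle markers had a median of 1.40 at D3 and were higher in 6 of 6 cases, but without mouse 17 the median was -0.097. The 10 RNA spike-ins on the array had differences from the vehicle of -0.73 to -0.52 at D3 and of -0.88 to -0.57 at D2. The part of these shifts in the values of Slc27a5, Baat, Cyp27a1 and Cyp8b1 was not tested. The quartiles of the 821 probes were -0.38 and -0.030 at D2, and -0.32 and -0.043 at D3. At D2 the Cyp8b1 difference (-1.33) lay beyond them and that of Cyp27a1 (-0.30) within. At D3 the Baat difference (-0.49) lay beyond them and that of Slc27a5 (-0.31) within. Much of any set lies beyond its quartiles, so this sets no gene apart.

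Slc10a1 (NTCP), the sodium-dependent carrier that takes bile acids up from blood, has a pair of probes that behaved differently. The brightest had a median sample signal of 212331 and a median reference signal of 196853 in liver, and in lung these were 219235 and 186035. After loess its log2 ratio was lower in liver than in lung by 1.74 (limma adjusted p 1.4e-06), but with the scanner software's log ratio the difference was -0.32 (limma adjusted p 0.32). Against forestomach it was -0.13 after loess and 1.74 with the scanner software's log ratio (limma adjusted p 8.9e-07), so the place of this probe among the tissues depended on the normalisation. The other probe had a median sample signal of 4094 in liver and was not detected in any vehicle lung or forestomach, with liver at least 49.9-fold and 49.2-fold higher. The liver-restricted probe is the one that follows the known site of the carrier. The bright probe stands for Slc10a1 in the counts of the 10 genes, in the plot by mouse and in the 45 correlations, and whether it measures the RNA of the carrier was not tested. The liver-restricted probe had log2 ratios of 6.34, 6.59, 6.45 and 6.79 in the vehicle mice, 6.54 and 6.41 at D1, 6.35, 6.21 and 6.32 at D2, and 6.17, 6.18, 6.36 and 6.49 at D3. Of the dosed livers, 2 of 3 at D2 and 2 of 4 at D3 lay below every vehicle liver. The differences of this probe were -0.066 at D1, -0.25 at D2 and -0.24 at D3 (SE 0.14, 0.12 and 0.11, limma adjusted p 1.00, 0.49 and 0.64), and its trend was -0.25 per 100 mg/kg-bw/day (95% interval -0.48 to -0.021, limma p 0.034 and adjusted p 0.54). The bright probe gave -0.15, -0.018 and -0.21.

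limma called none of the receptors (Nr1h4, Nr0b2 and Nr5a2) at any dose or in the trend. Nr1h4, the bile acid sensor, ranged from 4.93 to 5.69 in vehicle livers and from 5.07 to 5.73 over the 9 dosed livers, with differences of -0.041, -0.11 and 0.10 (SE 0.20, 0.17 and 0.16). Its 95% interval at D3 was -0.24 to 0.45, which leaves out a 1.5-fold change in either direction, but with median centring the D3 difference was 0.39 (SE 0.24), and such an interval does not. For Nr0b2, the corepressor induced by Nr1h4, the log2 ratios were 4.39, 2.92, 4.82 and 4.63 in the vehicle mice, 3.94 and 5.08 at D1, 3.98, 4.66 and 3.38 at D2, and 5.09, 3.76, 3.65 and 4.23 at D3. The lowest liver was a vehicle mouse, the highest a D3 mouse, and the groups overlapped throughout. The D3 difference was -0.0091 (95% interval -0.97 to 0.95). Nr5a2 had log2 ratios of 5.71 to 6.11 in vehicle livers, 5.79 to 5.85 at D1, 5.41 to 6.38 at D2 and 5.76 to 6.16 at D3. Its differences were -0.12, -0.18 and -0.018 (SE 0.23, 0.20 and 0.18), and its other probe, with ratios of only 0.48 to 1.65, gave -0.11, 0.39 and 0.34 (limma adjusted p 1.00, 0.50 and 0.67), so the 2 probes had opposite signs at D2 and D3. The dose trend of the other probe was 0.40 per 100 mg/kg-bw/day (95% interval 0.0085 to 0.78, limma p 0.046 and adjusted p 0.57).

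Promoter sequence was at hand from RefSeq for 7 of the 10 genes, as 9 windows of 250 bases before a start site. They were searched on both strands for CAAGGNCA and for GCGTG, the core of the DNA element that AhR binds. CAAGGNCA was found in 2 of the 9 windows, those of Cyp8b1 and Nr0b2, and in 5.53% of 32851 promoter windows. GCGTG was found in 2 of the 9, those of Nr0b2 and of a start site of Nr5a2, and in 28.2% of all windows. The Nr0b2 window is shown as the only one of the 9 with both motifs. It lies at chr4:133553126-133553375 (GRCm38.p6, + strand), with CAAGGNCA 201 to 194 bases and GCGTG 137 to 133 bases before the start in capitals. A match describes letters and shows no binding.
Nr0b2: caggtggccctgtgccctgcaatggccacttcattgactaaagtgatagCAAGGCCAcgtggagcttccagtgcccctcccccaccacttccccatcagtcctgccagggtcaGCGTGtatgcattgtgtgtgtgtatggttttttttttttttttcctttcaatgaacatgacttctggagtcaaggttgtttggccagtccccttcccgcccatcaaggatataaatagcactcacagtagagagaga

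Of 42 other genes of bile acid synthesis, control and transport, 39 were tested in liver, and limma called 0 in any of the 5 comparisons. Among the other synthesis enzymes 11 of 12 were tested. At D3 11 of 11 were lower than the vehicle mean after loess (median -0.23), but 3 of 11 with median centring and 9 of 11 without mouse 17. After loess 3 of the 11 had an unadjusted limma p under 0.05 on the lower side, and 2 without mouse 17, beside 3.89% of all tested probes. The largest D3 differences belonged to Cyp39a1, an oxysterol 7-alpha-hydroxylase (-0.78, SE 0.52, limma adjusted p 0.75), Cyp2a12 (-0.31, SE 0.098, limma adjusted p 0.43) and Cyp46a1, cholesterol 24-hydroxylase (-0.29, SE 0.13, limma adjusted p 0.62). With median centring these were -0.52, -0.0067 and -0.088. Cyp39a1 reached 3.76 in D2 mouse 12 against 0.26 to 1.93 in the other livers. Of 16 other regulators 15 were tested, 10 lower and 5 higher at D3 (median -0.068), but 1 lower and 14 higher with median centring. Hnf4a, the liver nuclear receptor that drives Cyp7a1 and Cyp8b1, was below every vehicle liver in 4 of 4 D3 mice (-0.35, SE 0.098, limma p 0.0036 and adjusted p 0.37; -0.036 with median centring). Mafg, a small Maf protein, was above every vehicle liver in 4 of 4 (0.26, SE 0.099, limma adjusted p 0.56; 0.56 with median centring, limma adjusted p 0.15), and Fgfr4, the receptor for the intestinal signal Fgf15, differed by -0.24 (SE 0.19; 0.0080 with median centring). Among all probes 3.04% had every D3 array below and 2.95% every D3 array above the vehicle.

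Among the other transporters 13 of 14 were tested, 8 lower and 5 higher at D3 (median -0.066), but 2 lower and 11 higher with median centring, and 6 lower without mouse 17 (median 0.059). Abcc3, a basolateral exporter of conjugates, had log2 ratios of 3.00, 2.07, 2.29 and 2.91 in the vehicle mice, 3.29 and 2.76 at D1, 3.01, 3.66 and 3.36 at D2, and 3.03, 3.41, 3.18 and 3.30 at D3. All 3 D2 and all 4 D3 livers lay above every vehicle liver, as did 4.51% and 2.95% of all tested probes. The differences were 0.77 (SE 0.23, limma p 0.0053 and adjusted p 0.29) at D2 and 0.66 (SE 0.21, limma p 0.0086 and adjusted p 0.45) at D3. Without mouse 12 the D2 difference of Abcc3 was 0.61 (limma adjusted p 0.51), and without mouse 17 its D3 difference was 0.60 (limma adjusted p 0.61). Abcb11, the bile salt export pump, differed by -0.25 at D3 (SE 0.097, limma adjusted p 0.58; 0.047 with median centring), with 3 of 4 livers below every vehicle liver, and Abcg8, a partner of the sterol exporter, by -0.24 (SE 0.28; -0.12 with median centring). A pair of uptake carriers, named after their values were seen, stood out at D2. Slco1a4 had ratios of 3.32, 4.62 and 2.99 against 1.90 to 2.71 in vehicle livers (1.49, SE 0.38, limma p 0.0016 and adjusted p 0.22), and without mouse 12 its difference was 1.00 (limma adjusted p 0.45). Slco1a1, which is male-biased, was at 0.29 in mouse 12 and at 6.44 to 6.97 in the other 12 livers.

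**Figure D4:**
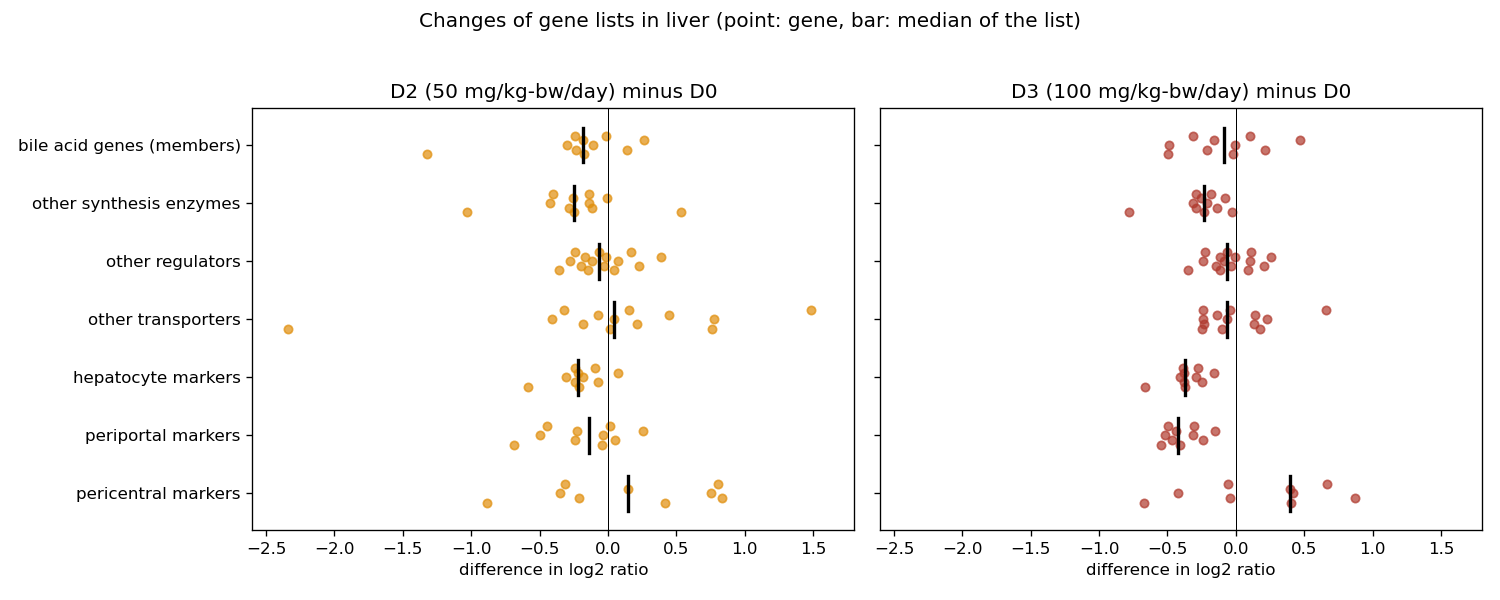
Difference from the vehicle group in log2 ratio at D2 and D3 for the 10 bile acid genes, the other pathway lists and hepatocyte, periportal and pericentral markers; each point is a gene and each bar the median of its list. At D3 all 11 other synthesis enzymes, all 10 hepatocyte markers and all 10 periportal markers lie below 0 after loess, as plotted, against 3, 6 and 8 of them with median centring.

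Whether the 10 genes varied together between mice was examined over the 13 livers in 45 pairs. After Benjamini-Hochberg adjustment 0 pairs passed at 0.05 (lowest adjusted p 0.12), and 4 had an unadjusted permutation p under 0.05. The closest pair was Cyp8b1 and Cyp27a1 (Pearson r 0.77, permutation p 0.0027, adjusted p 0.12; Spearman rho 0.55, permutation p 0.052, adjusted p 0.58). Without mice 11 and 12, the livers farthest from the median of Cyp8b1, r was 0.27. Leaving out livers for their distance narrows the range and by itself lowers r, so this drop does not show what the relation rests on. Within the slides r was 0.81 (7 livers) and 0.58 (6 livers), and with the scanner software's log ratio it was 0.088 (rho 0.15). Cyp27a1 and Slc27a5 had r 0.62 (permutation p 0.024, adjusted p 0.27; rho 0.73, permutation p 0.0069, adjusted p 0.31), 0.82 without the same 2 livers, and 0.62 and 0.48 within the slides. With the scanner software's log ratio this was the 1 pair of the 45 that passed (r 0.93, permutation p 3.0e-05, adjusted p 0.0013; rho 0.87, permutation p 0.00021, adjusted p 0.0094). The other pairs under 0.05 were Nr1h4 with Akr1d1 (r 0.62, rho 0.46) and Slc10a1, on its bright probe, with Akr1d1 (r -0.61, rho -0.60), each with a permutation p for r of 0.024. Without the 2 livers farthest from the median of the first gene r was 0.11 and -0.53. Within the slides it was -0.036 and 0.94 for Nr1h4 with Akr1d1, and -0.73 and -0.56 for Slc10a1 with Akr1d1. With the scanner software's log ratio r was 0.55 for the former and 0.45 for the latter, whose sign thus turned. With each dose group's mean taken away, r was 0.54 for Cyp8b1 with Cyp27a1 (permutation p 0.056), 0.37 for Cyp27a1 with Slc27a5 (permutation p 0.21), 0.64 for Nr1h4 with Akr1d1 (permutation p 0.016) and -0.71 for Slc10a1 with Akr1d1 (permutation p 0.0064), and 0 of the 45 pairs passed after adjustment. These permutations ran over all 13 livers and not within dose groups, so their p-values may be too small.

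With the liver-restricted probe of Slc10a1 in the same 45 pairs, an alternative chosen after the data had been seen, 0 pairs passed again (lowest adjusted p 0.062 for r and 0.059 for rho). Slc10a1 and Akr1d1 then had r 0.23 and rho 0.20, the opposite sign. Slc10a1 and Slc27a5 had r 0.77 (permutation p 0.0022, adjusted p 0.062; rho 0.74, permutation p 0.0054, adjusted p 0.10), 0.66 without D0 mice 2 and 4, the livers farthest from the median of Slc10a1, and 0.86 and 0.58 within the slides. Slc10a1 and Cyp27a1 had r 0.67 (permutation p 0.012, adjusted p 0.18; rho 0.81, permutation p 0.0013, adjusted p 0.059), 0.66 without the same 2 livers, and 0.75 and 0.40 within the slides.

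**Figure D5:**
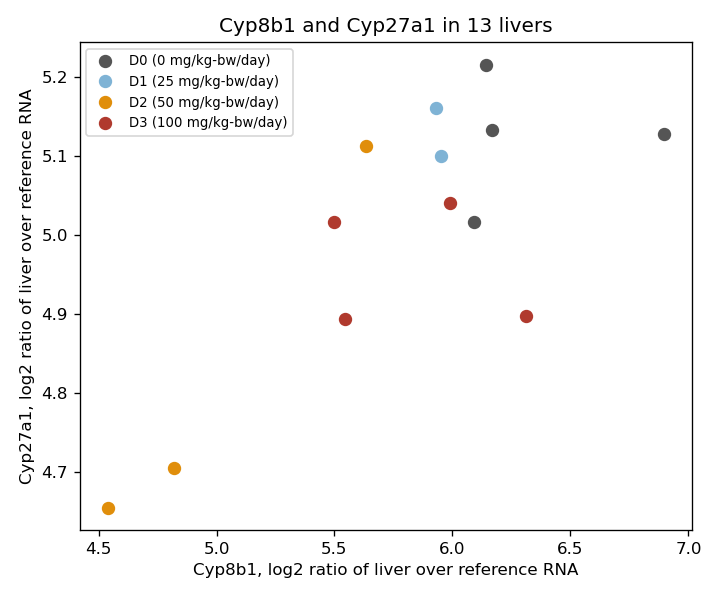
Log2 ratio of liver over reference RNA of Cyp8b1 against Cyp27a1 in the 13 livers, coloured by dose group. D2 mice 11 and 12 lie apart at the lower left (Cyp8b1 4.82 and 4.54, Cyp27a1 4.70 and 4.65), and r drops from 0.77 to 0.27 without them; with the scanner software's log ratio it is 0.088 over all 13.

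The genes most like these, by Pearson r over the 13 livers after each dose group's mean was taken away, were sought among 14164 named genes and are given as a description. They were Slc25a5 (r 0.94), Tubgcp2, Mblac2, Wdr36 and Isca2 (0.89) for Cyp7a1, Hnrnpu (0.91), Prdx2, Cdv3, Eif3f and Usp33 (0.89) for Cyp8b1, and Sec14l3 (0.96), Crnkl1, Ccdc91 and Amt (0.86) for Nr0b2. For the liver-restricted Slc10a1 probe they were Man1a2 (0.92), Il3ra, Emc6, Gtf2ird2 and Hbb-bt (0.88), and for its bright probe Ttc38 (0.97), Kctd14, Med16, Elk1 and Asb18 (0.96). None of the genes named there belongs to the pathway lists.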

How the data were processed

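Liver, lung and forestomach RNA of the same mice was hybridised in Cy5 beside a universal mouse reference RNA in Cy3 on Agilent SurePrint G3 mouse arrays of 8x60K format, with no dye swap, so that a dye effect of a probe is shared by all arrays. The authors deposited scanner files with the median intensity of both channels per spot. Per the file headers, Feature Extraction 11.0.1.1 was used for liver and 10.7.3.1 for the other tissues. The same deposited files hold the software's LogRatio (log10 of red over green), used here as an alternative. The authors' processed log2 table was compared with the scanner values but not used for liver. In the study's methods, LOWESS and MAANOVA were applied. In their place, loess within each array (limma 3.58.1, R 4.3.3) was applied here to the log2 ratio of the medians without background subtraction. Median centring of each array, the main alternative, leaves intensity-dependent differences between the dyes in place. Control spots (3671 of each array) were given no weight, spots called outliers (0.392%) were left out, and spots of a probe were averaged. Probes were named through RefSeq accessions (26413 of 55681 named, 47.4%) and tested where the red signal was well above background on at least 2 liver arrays (30460 probes).

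Dose groups were taken from the labels, and 1 limma fit with a mean for each of the 4 groups gave the comparisons of D1, D2, D3 and of their mean with D0. A second fit with dose as a linear term gave the trend, and a fit over all 42 arrays compared the tissues. P-values were two-sided, adjusted by Benjamini-Hochberg over all tested probes, and a call needed 1.5-fold and an adjusted p at or under 0.05. Lower bounds of a fold ("at least") set the mean liver signal against the lowest signal that counted as well above background, or the dim probe's own signal where higher, after loess and Aquantile per channel. After the data had been seen, the same bound on the deposited medians and the fold of the ratios were set beside it, and the smallest is given. Correlations were tested with 100000 resamples. The fits were tested on simulated data. The number of arrays limits the precision. The 10 genes and all lists were chosen with earlier results of these data known. The genes named from the other pathway lists are the 3 with the largest difference at D3 in each list. Of the genes most like each of 4 members, the 5 with the highest r were taken, and 1 of them is not reported here. The high-ratio probes, the sex-biased genes, the metallothioneins, Slco1a1 and Slco1a4 were chosen after their values had been seen. D2 without mouse 12 and D3 without mouse 17 were also fitted. Alternatives were other background corrections, normalisations, filters, probes and fits, the slide as a block and leaving out each array.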

Additional observations from a re-analysis of the deposited data

Results flagged for a closer look

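Among the dose groups of 4 livers (D0 and D3, 26 groups over the 13 probes), 1 sample lay far from the others of its group. Cyp8b1 in the liver of vehicle mouse 3 had a log2 ratio of 6.90, the nearest other vehicle liver was at 6.17, and this gap was 0.90 of the range of the group, above Dixon's critical value. Chance alone gives about 1 such sample in 20 groups. Without this liver the Cyp8b1 difference was -1.14 at D2, -0.30 at D3 and -0.54 over all doses.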

How the results depend on the processing

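Under all alternatives run, limma called 0 of the 10 genes in each liver comparison, also with each array left out in turn. Counts over all probes were less stable. With the slide as a block, D2 had 1 call in place of 13, D3 10 in place of 16 and all doses 15 in place of 23. In a fit of only the groups compared, D1 had 2 calls in place of 0, D2 4 and D3 46. With median centring D2 had 31 (28 higher and 3 lower, against 8 and 5), D3 67 (65 higher and 2 lower, against 11 and 5) and the trend 30 in place of 0. With the scanner software's LogRatio D3 had 9, all doses 10 and 1 of the 45 correlations passed. With the mean over the probes of a gene, fewer features were tested, and D2 had 2, D3 9 and all doses 14. Leaving out 1 vehicle array gave 0 calls at D1. Leaving out a D1 array leaves 1 liver in that group, with a spread taken from the other groups, so no count is given. Leaving out 1 array gave 0 to 159 calls at D2, 2 to 22 at D3, 0 to 44 over all doses and 0 to 10 for the trend. The 159 came without D2 mouse 11, and 26 were called without mouse 12, 1 without mouse 13, 4 without vehicle mouse 1 and 0 without vehicle mouse 2, 3 or 4. At D3, 2 were called without mouse 17, 20 or vehicle mouse 2, 3 without vehicle mouse 3 and 5 without mouse 16 or vehicle mouse 1 or 4. The cause was not tested.

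Several differences of the 10 genes changed sign, all of them uncalled. Median centring gave Nr1h4 0.13, Nr0b2 0.074, Slc10a1 0.20, Baat 0.061 and Nr5a2 0.043 at D2, and Cyp27a1 0.086, Nr0b2 0.19, Slc10a1 0.12 and Nr5a2 0.21 at D3. The scanner software's LogRatio gave Slc27a5 0.030 at D1, Cyp7a1 -0.51 and Akr1d1 -0.00089 at D2, and Cyp7a1 -0.10 and Akr1d1 -0.043 at D3. Normexp gave Slc10a1 0.036 at D2. The mean over its probes gave Nr5a2 0.11 at D2 and 0.16 at D3, and its other probe, an alternative chosen after the data had been seen, 0.34 at D3. Leaving out 1 array moved Cyp27a1 between -0.028 and 0.038, Nr1h4 between -0.16 and 0.095, Nr0b2 between -0.25 and 0.90, Slc27a5 between -0.10 and 0.0074 and Akr1d1 between -0.31 and 0.19 at D1. At D2 the ranges were -0.32 to 0.94 for Cyp7a1, -0.23 to 0.027 for Nr1h4, -0.61 to 0.13 for Nr0b2, -0.15 to 0.058 for Slc10a1 and -0.054 to 0.43 for Akr1d1. At D3 they were -0.015 to 0.24 for Nr1h4, -0.43 to 0.20 for Nr0b2, -0.029 to 0.40 for Akr1d1 and -0.10 to 0.039 for Nr5a2. Cyp8b1 at D2 was lower under every alternative run (-1.71 to -1.08, limma adjusted p 0.093 to 0.45).

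No paired analysis was possible because the dose groups share no mouse. The tissues come from the same mice per the labels, and with the mouse as a block (replicate block, correlation 0.059) limma called 10 genes different between liver and lung and 9 between liver and forestomach, as without it. On the normalised sample signal alone the lower bounds of liver over lung ran from 5.53- to 117-fold over the 6 genes, in place of 3.23- to 62.7-fold. The authors' processed table was not run as an alternative for liver, since its liver columns did not correspond to the scanner values.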

Other observations

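The authors' processed table and the scanner files differed for liver. Over all probes, the correlation of each array's processed column with its own log2 ratio lay between -0.0030 and 0.00034 on the 13 liver arrays, against 0.997 to 0.999 on the 15 lung arrays and 0.994 to 0.999 on the 14 forestomach arrays. The median of the 10 hepatocyte markers in liver was 7.90 in the scanner values and -0.052 in the processed table. The scale and centring of the liver columns stay unknown, and their medians ran from -0.029 to -0.0017.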
